A study of Mus musculus with 3 samples.

Results

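The miR-10, miR-99 and miR-100 family was followed through its 5 mature 5p strands, taken by name from mouse microRNA (miRNA) arrays: mmu-miR-10a-5p, mmu-miR-10b-5p, mmu-miR-99a-5p, mmu-miR-99b-5p and mmu-miR-100-5p, written below without the species prefix. These 5 were among 1881 miRNAs on the array, and 10 of its 4415 probes read them, 2 probes for each member. The arrays held RNA of exosomes, small membrane vesicles shed by cultured cells, here bone-marrow mesenchymal stem cells (MSCs), which grow attached to the dish. The cells came from male wild-type C57BL/6 mice of 4 to 6 weeks and were used at passages 3 to 6. The vesicle groups are called N-Exo after 24 h of normoxia, H-Exo after 24 h of hypoxia, and H+G-Exo when hypoxic cells also had GW4869, an inhibitor of neutral sphingomyelinase, an enzyme of exosome formation. The oxygen level and the GW4869 dose are not given in the sources used here. Medium of 10 dishes was collected. The design text speaks of 3 samples of each kind while 1 array of each was analysed here, and whether an array holds 1 sample or a pool is not stated. Each group was 1 array, so no difference here has a replicate check and none carries a p-value.

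The family is among the oldest in animals. A miRNA finds its targets mainly through its seed, bases 2 to 8 from the 5′ end, and the family holds a pair of seeds that share their first bases. The miR-10 genes lie inside the Hox clusters and are known as repressors of Hox genes, which set position along the body axis. miR-99 and miR-100 are known as repressors of mTOR, a kinase that drives cell growth. The miR-99 and miR-100 genes lie beside a let-7 gene and a miR-125 gene, and each such trio can be made from 1 long transcript.

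The mature sequences are shown because members this alike are hard to tell apart by hybridization. They come from RefSeq (GRCm38.p6), where all 5 members were matched by name, and capitals mark the seed.
miR-10a-5p: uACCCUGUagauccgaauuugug
miR-10b-5p: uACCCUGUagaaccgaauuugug
miR-99a-5p: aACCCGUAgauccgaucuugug
miR-99b-5p: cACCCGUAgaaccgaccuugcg
miR-100-5p: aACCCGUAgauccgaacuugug
miR-10a-5p and miR-10b-5p shared the seed ACCCUGU, which no other mouse miRNA of the 1679 in the RefSeq table had. The seed ACCCGUA was that of miR-99a-5p, miR-99b-5p and miR-100-5p alone. Positions are counted from 1 at the 5′ end. From miR-10a-5p to miR-10b-5p the single change was U12A, and from miR-100-5p to miR-99a-5p it was A16U, both outside the seed. miR-99b-5p differed from miR-100-5p by A1C, U11A, A16C and U21C. With the base at position 6 of miR-10a-5p left out, the remaining bases matched miR-100-5p at 20 of 22 positions, so the seeds differ by 1 extra base.

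In the same RefSeq build, miR-10a-5p lies at chr11:96317186-96317208 within the span of Hoxb3, and miR-10b-5p at chr2:74726074-74726096 within the spans of Hoxd3 and Hoxd4. miR-99a-5p lies at chr16:77598940-77598961, within the span of no other gene of the table. Its gene is 656 bases from Mirlet7c-1 and 47272 bases from Mir125b-2. miR-99b-5p lies at chr17:17830194-17830215 within the span of Spaca6, and its gene is 94 bases from Mirlet7e and 554 from Mir125a. miR-100-5p lies at chr9:41531437-41531458 within Mir100hg, a long non-coding RNA gene, 5211 bases from Mirlet7a-2 and 50421 from Mir125b-1. All 5 are on the plus strand, and the table gives gene spans without exons.

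The probes are DNA, complementary to the 3′ part of each miRNA. The longer probe of each member, which gave its value here, is shown because a single base parts several of them. Capitals mark the bases that mismatch the most similar other mouse miRNA.
miR-10a-5p probe: cacaaattcggAtctacaggg
miR-10b-5p probe: cacaaattcggTtctacaggg
miR-99a-5p probe: cacaagAtcggatctacgg
miR-99b-5p probe: cGcaagGtcggTtcta
miR-100-5p probe: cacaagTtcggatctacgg
The probes of miR-10a-5p and miR-10b-5p had 1 mismatch to each other's miRNA, as did those of miR-99a-5p and miR-100-5p. The miR-99b-5p probe had 3 mismatches to miR-100-5p, which its capitals mark, and also 3 to miR-10b-5p. No probe of the 10 matched another mouse miRNA of the table without a mismatch. How much signal passed between members with 1 mismatch was not tested, so the separate values of miR-10a-5p and miR-10b-5p, and of miR-99a-5p and miR-100-5p, are uncertain to that extent.

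The label of the cells was set against marker miRNAs. Of 7 miRNAs typical of bone-marrow MSCs, such as miR-21a-5p, miR-199a-3p and miR-143-3p, all were detected except miR-145a-5p in H-Exo, which made 6 there. Endothelial miR-126a and liver miR-122-5p stayed undetected on every array. Of 6 blood cell markers 2 were detected on each array. Their scaled signals (signal over the array's 75th percentile), raised to a common floor of 0.0653 where lower, summed to between 0.131 and 0.292. In H+G-Exo both lay below that floor, miR-451a at 0.0480 and miR-223-3p at 0.0615. Muscle and heart markers, with the same floor, summed to between 0.101 and 0.166, with 1 or 2 of 5 detected. The MSC markers themselves summed to 223.6, 92.4 and 35.3 from N-Exo to H+G-Exo, of which miR-21a-5p alone made 190.4, 81.0 and 29.7. Sums of different lists come from different probes and are not compared. The 3 arrays shared 1 slide and 1 scan time, and 586 to 685 miRNAs were detected on each. The 75th percentile of the probes detected on all 3 arrays, by which each array was divided, was 417.3 for N-Exo, 235.0 for H-Exo and 468.9 for H+G-Exo. Fewer vesicles and less of a miRNA per vesicle cannot be told apart in such data.

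Errors after ± are SDs over the spots of 1 probe on 1 array and hold technical error only. miR-10a-5p, whose gene sits among the Hoxb genes, had a scaled signal of 2.23 ± 0.0909 in N-Exo, 0.943 ± 0.0502 in H-Exo, and just 0.350 ± 0.0224 with GW4869, each over 15 spots. The 3 values did not overlap within their SDs, with N-Exo highest and H+G-Exo lowest. Before scaling the probe read 931, 221.5 and 164.2, the same order with H-Exo and H+G-Exo much closer. Its shorter probe, of 20 bases, read 1.13, 0.488 and 0.154 after scaling. Both probes thus gave the same order of the arrays.

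miR-10b-5p, from the Hoxd cluster, was at the edge of detection. Its probe of 21 bases was well above background in N-Exo only, on 15 of 15 spots, at a scaled signal of 0.0680 ± 0.0122, and on 0 spots of the other 2 arrays. Unscaled, it read 28.4 ± 5.09 in N-Exo, then 6.42 ± 3.17 and 3.91 ± 3.34 on the hypoxia arrays without and with GW4869, where the negative control spots of the arrays had SDs of 3.00 to 3.60. The probe of 20 bases was detected nowhere. As lower bounds, each set by the lowest signal detected on the other array, miR-10b-5p was at least 1.04-fold higher in N-Exo than in H-Exo and at least 1.81-fold higher than in H+G-Exo, so no 2-fold difference is shown for it. With the common floor of 0.0653 used for the other values, the latter bound is 1.04-fold too. The scanner software lists a much higher total for miR-10b-5p in N-Exo, 399.6, of which its own detected probe made 7.93. The rest, 391.6, equals the listed total of miR-10a-5p. In the authors' deposited value table miR-10b-5p was above the lowest value in N-Exo only, at 2.19 on the log2 scale.

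miR-99a-5p, known as a repressor of mTOR, had the steepest gradient of the 4 members seen on all 3 arrays. N-Exo gave a scaled signal of 0.995 ± 0.0331 over 14 spots, H-Exo 0.217 ± 0.0161 over 14 and H+G-Exo 0.0789 ± 0.0115 over 15. Unscaled it read 415.2, 51.0 and 37.0, so nearly all of the unscaled gap lay between N-Exo and the other 2 arrays. In H+G-Exo it was still well above background on 15 of 15 spots, close to the lowest signal detected there, 17.6 unscaled. Its probe of 18 bases was detected in N-Exo only, at 0.224 ± 0.0198, which put it lower by at least 3.44-fold in H-Exo and by at least 5.97-fold in H+G-Exo (3.44-fold at the common floor).

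miR-99b-5p, with the same seed as miR-99a-5p but a gene on another chromosome, kept most of its scaled signal in H-Exo. N-Exo read 2.51 ± 0.173 over 14 spots, H-Exo 2.04 ± 0.155 over 15 and H+G-Exo 0.763 ± 0.0693 over 15. N-Exo and H-Exo lay near each other and H-Exo and H+G-Exo far apart. Its probe of 15 bases gave 1.48, 1.33 and 0.509, the same picture, with SDs of N-Exo and H-Exo that overlapped. Before scaling the longer probe read 1049, 478.8 and 357.8, so there the larger step was between N-Exo and H-Exo.

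miR-100-5p, the sequence nearest to miR-99a-5p, had a scaled signal in N-Exo of 3.33 ± 0.168 over 15 spots, in H-Exo of 1.39 ± 0.0849 over 15 and in H+G-Exo of 0.884 ± 0.0313 over 12. Scaled, the order was again N-Exo, H-Exo, H+G-Exo. Before scaling it was not: N-Exo stood at 1391 ± 70.0, H-Exo at 327.3 ± 19.9 and H+G-Exo at 414.5 ± 14.7, so the last 2 arrays changed places. The probe of 18 bases did the same, with 610.9, 129.9 and 169.9.

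**Figure D1:**
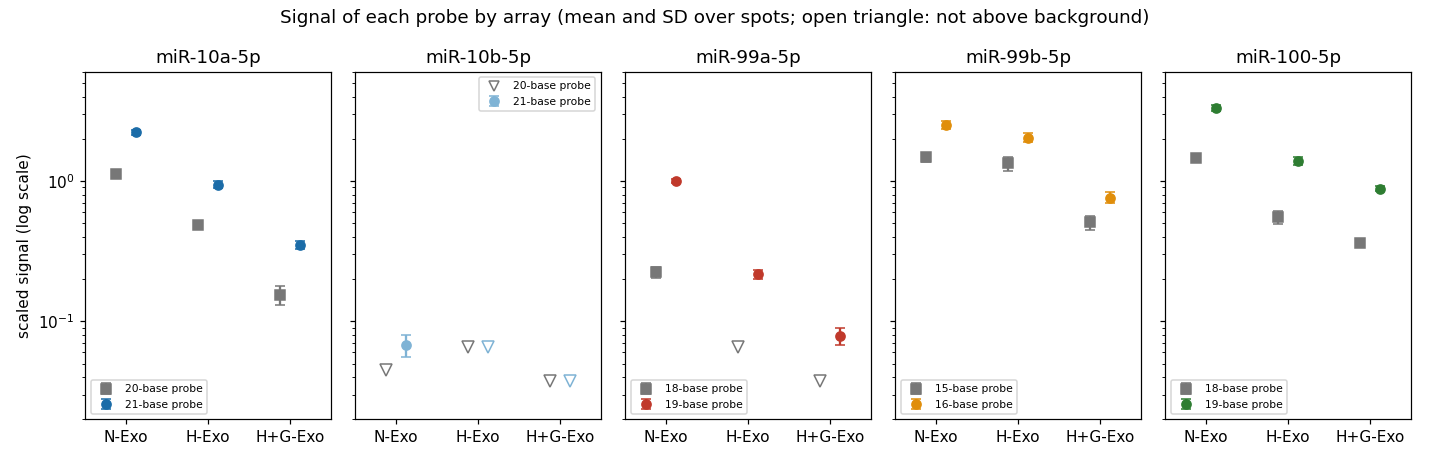
Scaled signal (log axis) of both probes of each member on the 3 arrays, as the mean with its SD over spots. Open triangles stand at the lowest signal detected on that array and mark probes not well above background there. The 4 members detected on every array step down from N-Exo to H-Exo to H+G-Exo, with a small first step for miR-99b-5p (2.51 to 2.04), and miR-10b-5p is detected in N-Exo alone.

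The first comparison, H-Exo against N-Exo, bears on hypoxia. A miRNA counted as risen or fallen where both arrays detected it and its difference was 2-fold or larger and above 2 standard errors over spots. By that rule 3 of the 4 members measured on both arrays fell and 0 rose, where 10.7% of all 582 measured miRNAs fell and 4.3% rose. Of the 285 numbered below 3000, most of them long known, 21.8% fell. miR-99a-5p fell 4.59-fold, miR-100-5p 2.39-fold and miR-10a-5p 2.37-fold. miR-99b-5p was 1.23-fold lower and did not pass. With normexp background correction miR-99a-5p still fell, by 2.52-fold. On the log2 scale these differences were -2.20 (SE 0.03 over spots), -1.26 (0.03), -1.24 (0.02) and -0.30 (0.04). Their median was -1.25, where the median of all 582 miRNAs was 0.34 and that of the 285 was 0.10.

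Positions relative to the other miRNAs do not depend on the scaling factor, apart from small shifts where the floor moves with it. Against the median of all as 0, miR-99a-5p lay at -2.54, and 2 of the 582 miRNAs had a lower value. miR-100-5p lay at -1.60 with 36 lower, miR-10a-5p at -1.59 with 40 lower, and miR-99b-5p at -0.65 with 120 lower. Without scaling, or with the hybridization spike-in as the scale, the median of all miRNAs was itself at -0.49 and -0.50, and miR-99b-5p then passed the rule, at -1.13 and -1.14. Of all miRNAs 23% and 23.4% fell under these settings. The MSC markers moved the same way under the percentile scaling: 6 of 6 measured fell, with a median of -1.54. Of all miRNAs 10.7% fell there, and 21.8% of those numbered below 3000. The part of the MSC markers in the members' result was not tested.

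H+G-Exo against H-Exo bears on GW4869 within hypoxia, and it shares the H-Exo array with the first comparison. Again 3 of 4 measured members fell and 0 rose, against 26.1% and 6.18% of all 566 measured miRNAs. Of the 274 numbered below 3000, 39.1% fell. This time the members that fell were miR-99a-5p, 2.75-fold, miR-10a-5p, 2.69-fold, and miR-99b-5p, 2.67-fold. miR-100-5p was 1.58-fold lower and did not pass. With normexp background correction miR-99a-5p no longer passed, at 1.41-fold lower. The log2 differences were -1.46 (SE 0.06 over spots), -1.43 (0.03), -1.42 (0.04) and -0.66 (0.03), with a median of -1.42 beside -0.42 for all 566 miRNAs and -0.73 for the 274. Against the median of all as 0, miR-99a-5p, miR-10a-5p and miR-99b-5p lay at -1.04, -1.01 and -0.997, with 68, 75 and 80 of the 566 miRNAs below them. miR-100-5p lay at -0.24 with 216 lower, and 0.08 above the median of the 274.

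These calls also rest on the scaling. With no scaling 0 of 4 members fell, at -0.46 for miR-99a-5p, -0.43 for miR-10a-5p and -0.42 for miR-99b-5p, and miR-100-5p stood at 0.34. Over all miRNAs that setting gave 1.23% fallen and 32.6% risen. With the hybridization and the labelling spike-ins 0 of 4 fell as well, and miR-100-5p stood at 0.25 and 0.02. Of all miRNAs 2.82% and 6.35% fell under these spike-in settings, and 30.9% and 23.8% rose. Of the MSC markers 4 of 6 measured fell here under the percentile scaling, with a median of -1.34, and their part was not tested. Under that scaling 26.1% of all miRNAs fell, and 39.1% of those numbered below 3000.

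H+G-Exo against N-Exo joins both steps and reuses both arrays. All 4 measured members fell, against 26.1% of all 606 measured miRNAs, of which 18.3% rose. Of the 295 numbered below 3000, 44.1% fell. miR-99a-5p fell 12.6-fold, miR-10a-5p 6.37-fold, miR-100-5p 3.77-fold and miR-99b-5p 3.30-fold. Just 1 of the 606 miRNAs had a lower difference than miR-99a-5p, at -3.66 (SE 0.06 over spots), and 25 a lower one than miR-10a-5p, at -2.67 (0.03). miR-100-5p, at -1.91 (0.02), had 72 below it and miR-99b-5p, at -1.72 (0.04), had 88. The median of all was -0.05, and 26 of the 606 stood at the floor on both arrays. All 4 members fell under each of the 13 alternative settings in this comparison. With normexp correction the fall of miR-99a-5p was 3.57-fold, less than the 4.69-fold of miR-10a-5p, so their order turned.

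**Figure D2:**
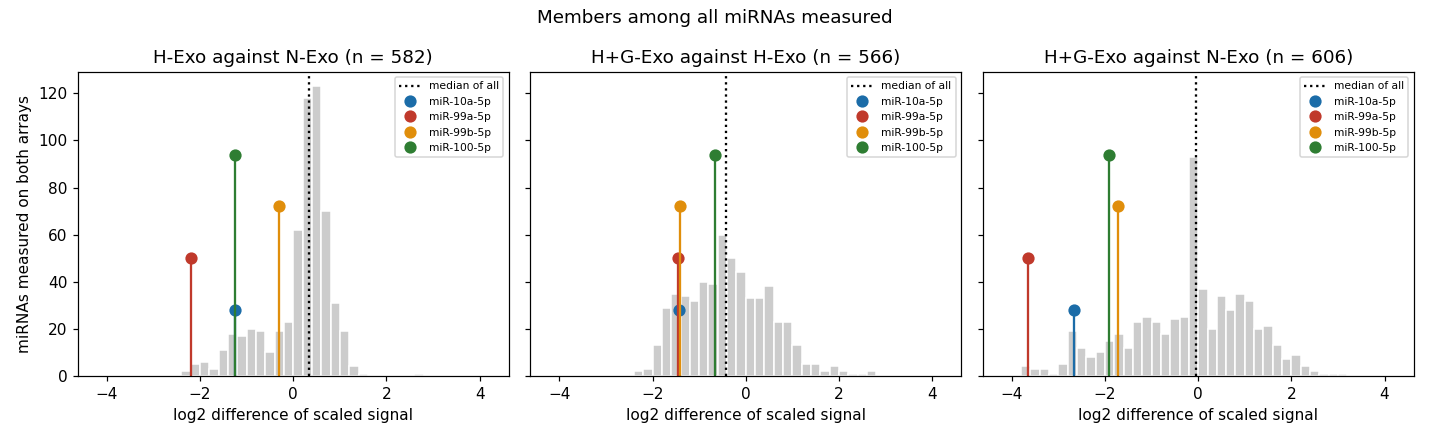
Histograms of the log2 difference of scaled signal (x axis) over all miRNAs measured on both arrays (y axis, number of miRNAs), with the members as coloured pins of arbitrary height and the median of all as a dotted line. Every measured member lies left of the median in each comparison, miR-99a-5p farthest (-2.20, -1.46 and -3.66), and miR-100-5p is nearest to it in H+G-Exo against H-Exo (-0.66 beside -0.42).

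The members were then set against each other, 6 pairs in each of the 3 comparisons, since a gap between their log2 differences does not depend on the scaling factor. In H-Exo against N-Exo, miR-99a-5p and miR-99b-5p, which share a seed, were farthest apart, by -1.89 (SE 0.05 over spots), or 3.72-fold. miR-99a-5p was lower than miR-100-5p by a further 1.92-fold, a gap of -0.94 (0.04), although their sequences differ at 1 base. miR-10a-5p and miR-100-5p, of different seeds, differed by 0.02 (0.04), within 2 SE, and the other 5 pairs differed by more than that. With normexp background correction the gap of miR-99a-5p to miR-100-5p shrank to -0.14 and that to miR-99b-5p to -0.99.

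In H+G-Exo against H-Exo the pattern of the pairs was another. miR-10a-5p, miR-99a-5p and miR-99b-5p lay within 2 SE of each other, with gaps between -0.04 and 0.03. miR-100-5p stood apart from each of them, higher by 0.77 (SE 0.04 over spots) than miR-10a-5p, by 0.80 (0.07) than miR-99a-5p and by 0.76 (0.05) than miR-99b-5p. So it kept 1.71-fold, 1.75-fold and 1.69-fold more of its H-Exo signal than they did. With normexp correction it was not above miR-99a-5p (-0.04), and was still above miR-10a-5p by 0.60 and miR-99b-5p by 0.64. The nearness of miR-99a-5p to miR-10a-5p and miR-99b-5p did not hold there either. The gap of miR-10a-5p to miR-99a-5p was then -0.63, and that of miR-99a-5p to miR-99b-5p was 0.68.

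The miRNAs that can share a transcript with a member are let-7, which restrains growth and pluripotency, and miR-125, the mammalian counterpart of lin-4. Of 12 such mature arms on the array 6 were measured on N-Exo and H-Exo, and 2 of them fell, where 10.7% of all miRNAs did. For H+G-Exo against H-Exo 5 of 6 fell, where 26.1% of all did. Of the miRNAs numbered below 3000, 21.8% and 39.1% fell in these comparisons. Without scaling the neighbour counts became 5 of 6 and 1 of 6, the latter miR-125a-5p, where 23% and 1.23% of all miRNAs fell. The gaps between members and neighbours that follow do not depend on the scaling factor. In H-Exo against N-Exo, miR-99a-5p at -2.20 was below let-7c-5p at -1.06 (SE 0.02 over spots) and miR-125b-5p at -0.98 (0.04), or 2.19-fold and 2.32-fold lower still. With normexp background correction miR-99a-5p stood at -1.34, and its gaps to these neighbours were not computed there. miR-100-5p, at -1.26, was 1.12-fold below let-7a-5p at -1.09 (0.01) and 1.21-fold below miR-125b-5p. miR-99b-5p at -0.30 was within 2 SE of miR-125a-5p at -0.33 (0.03), while let-7e-5p, between them in the genome, was at -0.84 (0.02).

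With GW4869 the neighbours came apart differently. miR-99b-5p, at -1.42, was above both let-7e-5p at -1.78 (SE 0.02 over spots) and miR-125a-5p at -2.26 (0.03), the latter by 1.79-fold. miR-100-5p, at -0.66, was 1.96-fold above let-7a-5p at -1.63 (0.02) and 1.46-fold above miR-125b-5p at -1.20 (0.04). miR-99a-5p, at -1.46, was within 1.20-fold of let-7c-5p and miR-125b-5p. With normexp correction miR-99a-5p stood at -0.50, so this nearness rests on the background method, and the gaps were not computed there. Mature let-7a-5p, let-7c-5p and miR-125b-5p are made from several genes, so their signals are not those of the named transcripts alone. Of the other arms, miR-125b-1-3p, from the gene near Mir100, was detected in H+G-Exo only, at 0.405 ± 0.0181. Scaled, miR-125a-3p read 1.00, 1.82 and 3.58 from N-Exo to H+G-Exo, opposite in order to the members, and rose in H+G-Exo against N-Exo. Before scaling it read 418.8, 428.1 and 1679, so N-Exo and H-Exo were just 1.02-fold apart.

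**Figure D3:**
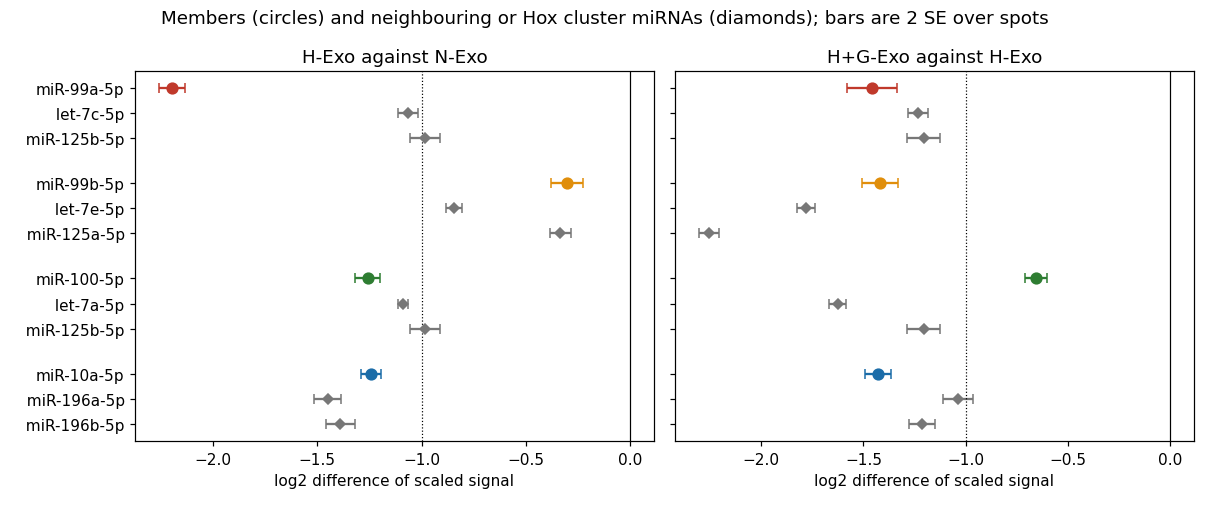
Log2 difference of scaled signal (x axis) for members (circles) and, below each, its transcript neighbours or, for miR-10a-5p, other Hox cluster miRNAs (diamonds), with bars of 2 SE over spots and the 2-fold line dotted. In H-Exo against N-Exo miR-99a-5p lies left of let-7c-5p and miR-125b-5p (-2.20 beside -1.06 and -0.98), and in H+G-Exo against H-Exo miR-100-5p lies right of let-7a-5p and miR-125b-5p (-0.66 beside -1.63 and -1.20). All values are of the main setting, without normexp correction.

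The other miRNAs of the Hox clusters, miR-196a, miR-196b and miR-615, gave 7 mature arms, of which miR-196a-5p and miR-196b-5p were measured on every array. Both fell in every comparison under the percentile scaling. In H-Exo against N-Exo, H+G-Exo against H-Exo and H+G-Exo against N-Exo, 10.7%, 26.1% and 26.1% of all measured miRNAs fell. Of those numbered below 3000, 21.8%, 39.1% and 44.1% did. Without scaling neither miR-196a-5p nor miR-196b-5p passed between H-Exo and H+G-Exo, where 1.23% of all miRNAs fell. Before scaling miR-196a-5p read 774.8 for H-Exo, close to 753.7 for H+G-Exo. In H-Exo against N-Exo miR-196a-5p and miR-196b-5p stood at -1.45 and -1.39, near miR-10a-5p at -1.24. In H+G-Exo against H-Exo they stood at -1.04 and -1.21, beside -1.43. Over both steps, miR-10a-5p at -2.67 and miR-196b-5p at -2.60 were within 2 SE, and miR-196a-5p stood at -2.49.

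The opposite strands of the same hairpins, which are usually degraded, were mostly not seen. Of the 5 arms miR-10a-3p, miR-10b-3p, miR-99a-3p and miR-100-3p were detected on none of the arrays. miR-99b-3p was detected on all 3, at scaled signals of 0.187 ± 0.0197, 0.151 ± 0.0296 and 0.177 ± 0.0198 from N-Exo to H+G-Exo. These 3 scaled values overlap within their SDs and none of its comparisons passed the rule, with a log2 difference of 0.23 (SE 0.12 over spots) in H+G-Exo against H-Exo where miR-99b-5p was at -1.42. Without scaling miR-99b-3p read 78.2, 35.5 and 83.0, so it fell 2.20-fold in the first step and rose 2.34-fold in the second.

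For each of the 4 members detected on every array, the 3 miRNAs nearest in pattern were found by the Euclidean distance between log2 values centred over the 3 arrays, among 561 others. Those of miR-10a-5p were miR-21a-5p at a distance of 0.01, miR-350-3p at 0.03 and miR-22-3p at 0.08. Those of miR-99a-5p were miR-322-5p at 0.08, miR-143-3p at 0.08 and miR-27b-3p at 0.13. miR-99b-5p was nearest to miR-20b-5p at 0.03, miR-7063-5p at 0.05 and miR-344i at 0.06, and miR-100-5p to miR-214-3p at 0.08, miR-16-5p at 0.14 and miR-23a-3p at 0.15. No member was among the 3 nearest of another, and miR-21a-5p, miR-22-3p, miR-143-3p and miR-214-3p are on the MSC marker list. With 3 points a pattern, such likeness describes these arrays only.

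**Figure D4:**
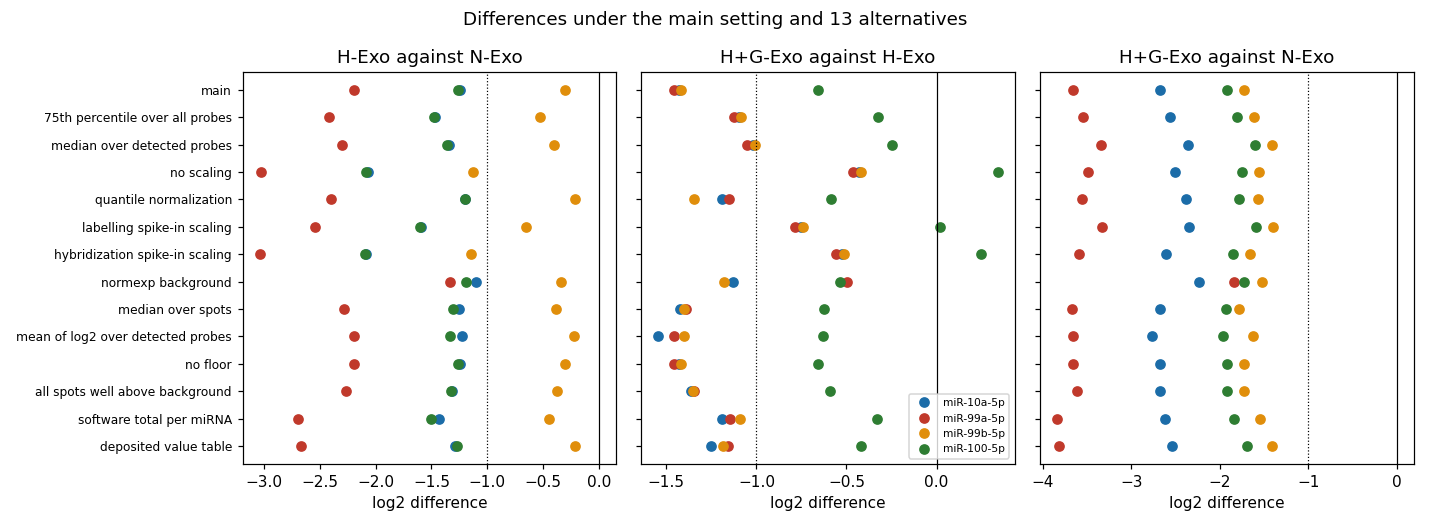
Log2 difference of each measured member (x axis) under the main setting and 13 alternatives (rows), with 0 as a line and the 2-fold mark dotted. In H+G-Exo against H-Exo all members shift right without scaling or with spike-ins, miR-100-5p past 0 (0.34 without scaling), while in H+G-Exo against N-Exo all stay left of the 2-fold mark.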

How the data were processed

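The authors' 3 one-colour (Cy3) arrays were scanned and quantified with Agilent Feature Extraction 10.7.1.1, per the file headers, and hold 1 intensity per spot with background subtracted by the software and no scaling between arrays. The label protocols name a cRNA amplification kit, unusual for miRNA arrays. The deposited value table holds log2 values, made by a normalization that no label or header names, and served as an alternative. Here, outlier spots (2 to 4 of the members' spots per array) were dropped, spots averaged, and each array divided by its 75th percentile, taken over the 1119 probes that every array detected. Detection needed over 50% of a probe's spots to be well above background. Signals below 0.0653 were raised to that floor, and a miRNA took its brightest probe. Named were the members, their opposite arms, transcript neighbours, Hox cluster miRNAs, seed sharers and 3 nearest patterns. Calls were checked on simulated spots, for probes clear of background and folds well past the 2-fold cut. That check does not cover calls near the cut or the floor, or error between arrays. Members and lists were chosen with earlier results of these data known. Tools were Python 3.11.15, pandas 2.3.3 and limma (normexp).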

Additional observations from a re-analysis of the deposited data

How the results depend on the processing

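Each comparison was repeated under 13 alternatives of scaling, background, spot summary, probe choice, floor, detection and source. In H+G-Exo against H-Exo the number of members that fell went from 3 to 0 on unscaled signals, to 0 when labelling spike-ins set the scale, to 0 when the hybridization spike-in did, and to 2 with normexp, where miR-99a-5p stood at -0.50. Of all miRNAs 1.23%, 6.35%, 2.82% and 12.3% fell under these settings in turn, where 26.1% did under the main one. The 6 scalings left below 0 every member but miR-100-5p, at 0.34, 0.02 and 0.25 in those first 3. Elsewhere the count was 3 or 4 in H-Exo against N-Exo, where between 7.2% and 23.4% of all miRNAs fell. In H+G-Exo against N-Exo the count was 4, where between 16.1% and 27% of all did. Over all alternatives the log2 differences in H-Exo against N-Exo ran from -2.08 to -1.10 for miR-10a-5p, -3.04 to -1.34 for miR-99a-5p, -1.14 to -0.22 for miR-99b-5p and -2.10 to -1.19 for miR-100-5p. In H+G-Exo against H-Exo they ran from -1.54 to -0.43, -1.46 to -0.46, -1.42 to -0.42 and -0.66 to 0.34, and in H+G-Exo against N-Exo from -2.77 to -2.23, -3.84 to -1.84, -1.79 to -1.39 and -1.96 to -1.59. The weakest values of miR-99a-5p in the first and last comparison came with normexp, whose offset of 50 lies above its unscaled signal of 37.0 in H+G-Exo. No paired analysis was possible because each group holds 1 array, and leaving out an array leaves no comparison. The number of arrays limits every value, and signal over background limits miR-10b-5p and, in H+G-Exo, miR-99a-5p.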
